A study of Mus musculus with 6 samples.

Results

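The retinoblastoma pocket proteins and the E2F transcription factors were followed at the RNA level in mouse embryonic fibroblasts that overexpressed p27. The set comprises 10 of the 24062 genes in the deposited count table, taken by symbol: the pocket protein genes Rb1, Rbl1 and Rbl2, the activator genes E2f1, E2f2 and E2f3, the repressor genes E2f4 and E2f5, and the atypical genes E2f7 and E2f8. All 10 were found and all 10 had enough counts to be tested, among 14090 tested genes. Bulk RNA was sequenced from 2 groups of 3 libraries, each at day 4. The p27 OE group carried a lentivirus for p27, the inhibitor of cyclin-dependent kinases (CDKs) encoded by Cdkn1b, and the labels describe these cells as not senescent at that time. The EV control group is named by an abbreviation that the labels do not spell out. Titles of the EV control libraries also carry the words dataset 10, which the p27 OE titles lack. What this tag marks was not tested, and any effect of it cannot be told apart from that of the group. All 6 libraries came from embryonic fibroblasts of the C57BL/6 strain, primary connective tissue cells grown from embryos. The labels name neither the promoter of the p27 virus nor the number of embryos behind a library, so p-values measure the spread between these libraries. How much of that spread is technical was not tested, and Xist RNA, described below, differed widely between libraries of one group.

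Pocket proteins hold E2F factors in check. In resting cells and in early G1, hypophosphorylated RB1 binds the activators E2F1, E2F2 and E2F3, while its relatives p107 (gene Rbl1) and p130 (gene Rbl2) work with E2F4 and E2F5 in repressor complexes such as DREAM. Cyclin D and cyclin E kinases phosphorylate the pocket proteins, which frees the activators to switch on genes of DNA replication, and p27 inhibits the cyclin E kinase in particular. Several members are E2F targets themselves (E2f1, E2f2, Rbl1, E2f7 and E2f8 are textbook cases), so their RNA reports on the pathway as well as supplying it. The comparison thus addresses whether the RNA of the switch itself moved when the kinase inhibitor was raised.

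No pocket protein or E2F gene was called changed in p27 OE when all 6 libraries were used. Cdkn1b stood at 419, 978 and 460 CPM (a gene's count relative to the TMM-scaled library size) in p27 OE 1, 2 and 3 and at 52.2, 49.9 and 51.2 CPM in EV control 1, 2 and 3. Every p27 OE library was thus above every EV control library for Cdkn1b, but unevenly: the edgeR log2 difference was 3.60 ± 0.35 (SE; adjusted p 0.180), 3.48 ± 0.42 in the paired fit (0.0873) and 3.11 without p27 OE 2 (0.00105). DESeq2 called Cdkn1b higher on all 6 libraries, at 3.61 without pairing (adjusted p 3.88e-27) and 3.49 with it (5.99e-16). The largest paired difference among the 10 members was in E2f3, which was 1.15-fold higher in p27 OE. In the edgeR quasi-likelihood fit without pairing, 0 of 10 members passed an adjusted p of 0.05, where 0% of all tested genes passed. DESeq2 and limma-voom without pairing also called 0 members, where DESeq2 called 0.632% of all tested genes and limma-voom called 0 genes. An unadjusted edgeR p under 0.05 was found for 1 member, E2f3, and for 7.22% of all tested genes. In the edgeR fit with the library number as a block (the paired fit), 0 of 10 members passed, where 7.43% of all tested genes did. The members' median log2 difference was 0.05 in the paired fit, against 0.00 over all tested genes, and the median size of their differences was 0.07, against 0.12 over all tested genes. These are bulk measurements, in which a change in the share of cycling cells and a change in RNA per cell cannot be told apart.

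The intervals limit how large an undetected change could be. For 9 members the 95% interval of the paired fit stayed within 1.5-fold in either direction, and the bound farthest from no change among those 9 was 1.30-fold. E2f2, with the fewest counts, had an upper bound of 1.53-fold. Without pairing the intervals were wider: 7 members stayed within 1.5-fold, and the upper bounds were 1.62-fold for E2f7, 1.63-fold for E2f8 and 2.03-fold for E2f2. In the paired fit 7 of the log2 differences were above 0 and 3 were below it. The groups did not overlap in 1 member, E2f3, where 14.9% of all tested genes had groups that did not overlap. Only E2f3 and Rbl2 had the same direction in each of the 3 numbers, where 45.5% of all tested genes did.

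**Figure D1:**
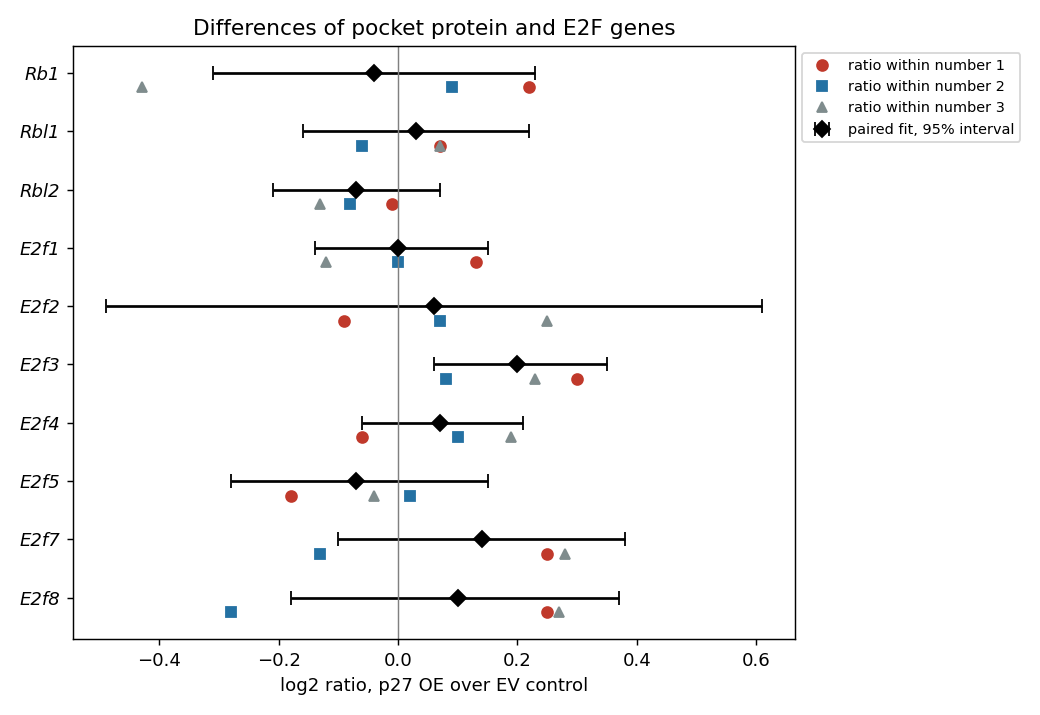
Log2 ratio of p27 OE over EV control (x axis) for each of the 10 genes (y axis). Black diamonds and bars give the edgeR paired fit with its 95% interval, and coloured points give the ratio within libraries of number 1, 2 and 3. The interval of E2f3 lies above 0, from 0.06 to 0.35, and the other 9 span 0.

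Libraries numbered 1 stood apart from the other 4, and this bears on several members. Along the leading principal component, which carried 58.9% of the variance in log2 CPM, p27 OE 1 and EV control 1 lay apart from the rest. Xist, which coats the silenced X, reached 477 CPM in p27 OE 1 and 317 CPM in EV control 1. In p27 OE 2 and EV control 2 it was at 9.57 and 5.93 CPM. In p27 OE 3 and EV control 3 it was at 0.504 and 0.601 CPM. Total counts ran from 38533998 to 44518389 in p27 OE and from 34920728 to 52098220 in EV control. Fibroblast markers (10 genes, among them Col1a1, Pdgfra and Vim) summed to between 58176 and 60111 CPM in p27 OE and between 54152 and 59182 CPM in EV control, and 2 of the 10 were called lower in the paired fit. Sums of markers of other cells were far smaller. Macrophage and leukocyte markers (7 genes in the table) summed to between 43.0 and 78.5 CPM in p27 OE and between 45.2 and 57.5 CPM in EV control, with 1 called higher. Endothelial markers (6 genes, 3 of them tested) summed to 4.70 to 5.34 CPM in p27 OE and 2.94 to 4.57 CPM in EV control, with 1 called higher and with Pecam1 and Cdh5 under 1 CPM in each library. Epithelial markers (6 genes, 2 of them tested) summed to 9.41 to 9.69 CPM in p27 OE and 10.6 to 12.1 CPM in EV control, with none called and with Epcam and Cdh1 under 1 CPM; these sums did not overlap between groups, nor did the endothelial and neural ones. Skeletal muscle markers (6 genes, 1 of them tested) summed to 0.504 to 2.2 CPM in p27 OE and 0.140 to 1.26 CPM in EV control, with none called and with Myf5 and Ckm at 0. Neural markers (6 genes, 5 of them tested) summed to 154 to 220 CPM in p27 OE and 120 to 137 CPM in EV control, with 2 called higher and with Elavl3 at 0. Sox10 and Gfap were under 1 CPM in each library, so these sums came almost wholly from Tubb3, Sox2 and Nes. Over all tested genes 3.80% were called higher and 3.63% lower in the paired fit, and 14.9% had groups that did not overlap. The part of these shifts in the members' values was not tested.

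E2F sites near the start of a gene are a classic means by which this family controls its own members, so each stretch that holds an E2F core is shown, with the CHR match of E2f8 for comparison. The CHR matches of Rbl2 and of the second E2f2 start are not shown. The RefSeq promoter table (GRCm38.p6, from 250 bases before to 50 after each start) had 9 entries for 7 members, and no entry was matched for Rb1, E2f4 and E2f5. Capitals mark an E2F core (TTTCGCGC, TTTGGCGC, TTCCCGCC or TTCGCGCC, on either strand) or a cell cycle homology region element, CHR (TTTGAA or TTCGAA, on either strand), the element through which the MuvB core of DREAM contacts DNA. Each stretch reads 5′ to 3′ on the strand of its gene. Those of Rbl1, E2f3 and E2f8 are the 60 bases before the start, and that of E2f2 runs from base 21 to base 50 after the RefSeq start.
Rbl1, chr2:157204535-157204594, minus strand: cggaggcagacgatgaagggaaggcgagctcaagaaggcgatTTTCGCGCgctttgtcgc
E2f3, chr13:29986064-29986123, minus strand: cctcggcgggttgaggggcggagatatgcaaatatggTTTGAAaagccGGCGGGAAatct
E2f8, chr7:48881597-48881656, minus strand: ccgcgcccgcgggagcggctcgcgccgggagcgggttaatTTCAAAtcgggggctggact
E2f2, chr4:136172294-136172323, plus strand: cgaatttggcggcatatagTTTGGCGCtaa
Matches to an E2F core were found in 3 of the 9 entries, those of Rbl1, E2f2 and E2f3, where 3.32% of all 32851 entries held one. A CHR match was found in 4 of the 9, one each of E2f2, E2f3, E2f8 and Rbl2, where 19.2% of all entries held one. The short Sp1 motif GGGCGG, searched on both strands, was in 8 of the 9 and in 35.7% of all entries. These motifs do not overlap one another in the stretches shown. The only RefSeq entry of E2f1 starts 466 bases inside the gene as GENCODE draws it, so its window is not the region before the annotated gene start. For E2f2 the RefSeq start used for the stretch shown lies 120 bases before the GENCODE gene start. That stretch, with its TTTGGCGC core, therefore lies wholly before the gene as GENCODE draws it. The second RefSeq start of E2f2 lies 8388 bases inside that gene. A match is a description of letters in the window and shows no binding.

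Among the pocket protein genes, Rb1 encodes the retinoblastoma protein, the founding member and the tumour suppressor of the family. It was at 13.1, 12.5 and 10.3 CPM in p27 OE 1, 2 and 3, and at 11.3, 11.8 and 13.9 CPM in EV control 1, 2 and 3. The groups overlapped, and the 2 libraries numbered 3 were the lowest and the highest of the 6. Within numbers the log2 ratios were 0.22, 0.09 and -0.43, and the paired log2 difference was -0.04 ± 0.12 (SE, n = 3 pairs; edgeR adjusted p 0.878). Without both libraries numbered 3 it was 0.15 (adjusted p 0.677), so the sign rested on that number. Rb1 lies on chromosome 14 from 73183673 to 73325822 on the minus strand (GRCm38), and 14.9% of its exon bases also belong to exons of Lpar6 or Rcbtb2 in GENCODE. The kit does not mark strand, and how shared bases were counted is not stated, so part of the Rb1 count is uncertain.

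Rbl1 encodes p107, the pocket protein that rises as cells enter the cycle. Its levels were 17.9, 12.5 and 13.9 CPM in p27 OE 1, 2 and 3 and 17.1, 13.1 and 13.2 CPM in EV control 1, 2 and 3. Both libraries numbered 1 stood above the other 4, and the groups overlapped throughout. The paired log2 difference was 0.03 ± 0.09, with an interval from -0.16 to 0.22 and an edgeR adjusted p of 0.880. The gene is on chromosome 2 from 157145893 to 157204534 on the minus strand, and its start is that of the stretch with the TTTCGCGC core.

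Rbl2 encodes p130, the pocket protein most abundant in quiescent cells. It stood at 41.7, 36.9 and 35.4 CPM in p27 OE 1, 2 and 3, against 42.1, 39.0 and 38.7 CPM in EV control 1, 2 and 3. The value was lower in p27 OE within each number, by 0.01, 0.08 and 0.13 on the log2 scale in numbers 1, 2 and 3 (ratios -0.01, -0.08 and -0.13), yet the groups overlapped. The paired log2 difference was -0.07 ± 0.06 (edgeR adjusted p 0.534), with an interval from -0.21 to 0.07. Of the exon bases of Rbl2 (chromosome 8, 91070057 to 91123844, plus strand), 21% are shared with Aktip or Gm45464, so its count is uncertain in the same way as that of Rb1.

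E2f1, the activator best known both for driving S phase and for inducing apoptosis, had the smallest paired difference. It was at 45.8, 40.0 and 39.3 CPM in p27 OE 1, 2 and 3 and at 41.9, 40.1 and 42.8 CPM in EV control 1, 2 and 3. The highest value and the lowest were both in p27 OE. The paired log2 difference was 0.00 ± 0.07 (edgeR adjusted p 0.992), with an interval from -0.14 to 0.15, or 0.904 to 1.11-fold. Without pairing the interval was wider, from 0.873 to 1.15-fold. With 1420 to 2261 counts per library E2f1 was among the better measured members, and its exons (chromosome 2, 154559407 to 154569892, minus strand) are shared with no other gene.

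E2f2, an activator with a known role in haematopoietic cells, was the least expressed member. It had 80, 34 and 45 counts in p27 OE 1, 2 and 3 and 101, 30 and 50 counts in EV control 1, 2 and 3. In CPM these are 1.76, 0.887 and 1.19 in p27 OE and 1.87, 0.848 and 1.0 in EV control. Libraries numbered 1 were highest and those numbered 2 lowest in both groups. The paired log2 difference was 0.06 ± 0.26 with an interval from -0.49 to 0.61 (edgeR adjusted p 0.909), so a rise of up to 1.53-fold lies within the interval at this depth. E2f2 lies on chromosome 4 from 136172394 to 136196057 on the plus strand.

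E2f3, the activator whose gene makes a long and a short protein from separate starts, came nearest to a call. It was at 41.2, 41.5 and 41.4 CPM in p27 OE 1, 2 and 3, against 33.4, 39.4 and 35.2 CPM in EV control 1, 2 and 3. All p27 OE libraries lay above all EV control libraries, and the p27 OE values were close together (41.3 ± 0.191 CPM, against 36.0 ± 3.07 CPM in EV control, SD, n = 3 each). The log2 ratio was 0.30, 0.08 and 0.23 within numbers 1, 2 and 3. In the paired edgeR fit the log2 difference was 0.20 ± 0.07, with an unadjusted p of 0.0103 and an adjusted p of 0.0869, and 23.9% of all tested genes had an unadjusted p under 0.05 there. Without pairing the edgeR unadjusted p was 0.0474 and the adjusted p 0.685, in a fit where 7.22% of all tested genes had an unadjusted p under 0.05. Leaving out both libraries numbered 2 gave a log2 difference of 0.27 and an adjusted p of 0.0451, on 2 pairs. Without those numbered 1 or 3 it was 0.15 (adjusted p 0.198) and 0.19 (0.384). The gene spans chromosome 13 from 29906575 to 29986063 on the minus strand. RefSeq places 2 starts in it, 1672 bases apart, and the stretch shown lies before the outer one. The counts are per gene and do not separate the starts.

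The repressor genes E2f4 and E2f5 encode the factors that p107 and p130 work with in repressor complexes. E2f4 was at 60.3, 73.6 and 72.5 CPM in p27 OE 1, 2 and 3 and at 62.8, 68.8 and 63.8 CPM in EV control 1, 2 and 3. It was higher in p27 OE in numbers 2 and 3 and lower in number 1, with groups that overlapped, and the paired log2 difference was 0.07 ± 0.06 (edgeR adjusted p 0.510). E2f5 was at 9.76, 12.1 and 10.4 CPM in p27 OE and at 11, 12 and 10.7 CPM in EV control, in the same order of numbers. Its lowest library and its highest were both in p27 OE, and the log2 difference was -0.07 ± 0.10 (adjusted p 0.733). E2f4 lies on chromosome 8 from 105297663 to 105305370 and E2f5 on chromosome 3 from 14578641 to 14606309, both on the plus strand.

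The atypical factors E2F7 and E2F8 bind DNA without a DP partner, are not held by pocket proteins and repress E2F targets late in S phase. E2f7 was at 14.3, 8.27 and 10.9 CPM in p27 OE 1, 2 and 3, against 12, 9.07 and 8.97 CPM in EV control 1, 2 and 3. E2f8 was at 11.2, 6.18 and 7.87 CPM in p27 OE and at 9.41, 7.49 and 6.53 CPM in EV control, in the same order of numbers. The pattern was shared: p27 OE 1 was highest and p27 OE 2 lowest of the 6 libraries for both genes, so that p27 OE enclosed the whole range of EV control. Within numbers 1, 2 and 3 the log2 ratios were 0.25, -0.13 and 0.28 for E2f7 and 0.25, -0.28 and 0.27 for E2f8. The paired log2 differences were 0.14 ± 0.11 (edgeR adjusted p 0.481) and 0.10 ± 0.13 (adjusted p 0.709). Without the libraries numbered 2 they were 0.27 (adjusted p 0.231) and 0.26 (0.308), still not called. E2f7 is on chromosome 10 from 110745439 to 110787384 on the plus strand. E2f8 is on chromosome 7 from 48866429 to 48881596 on the minus strand, and 11.2% of its exon bases are shared with Gm2788.

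**Figure D2:**
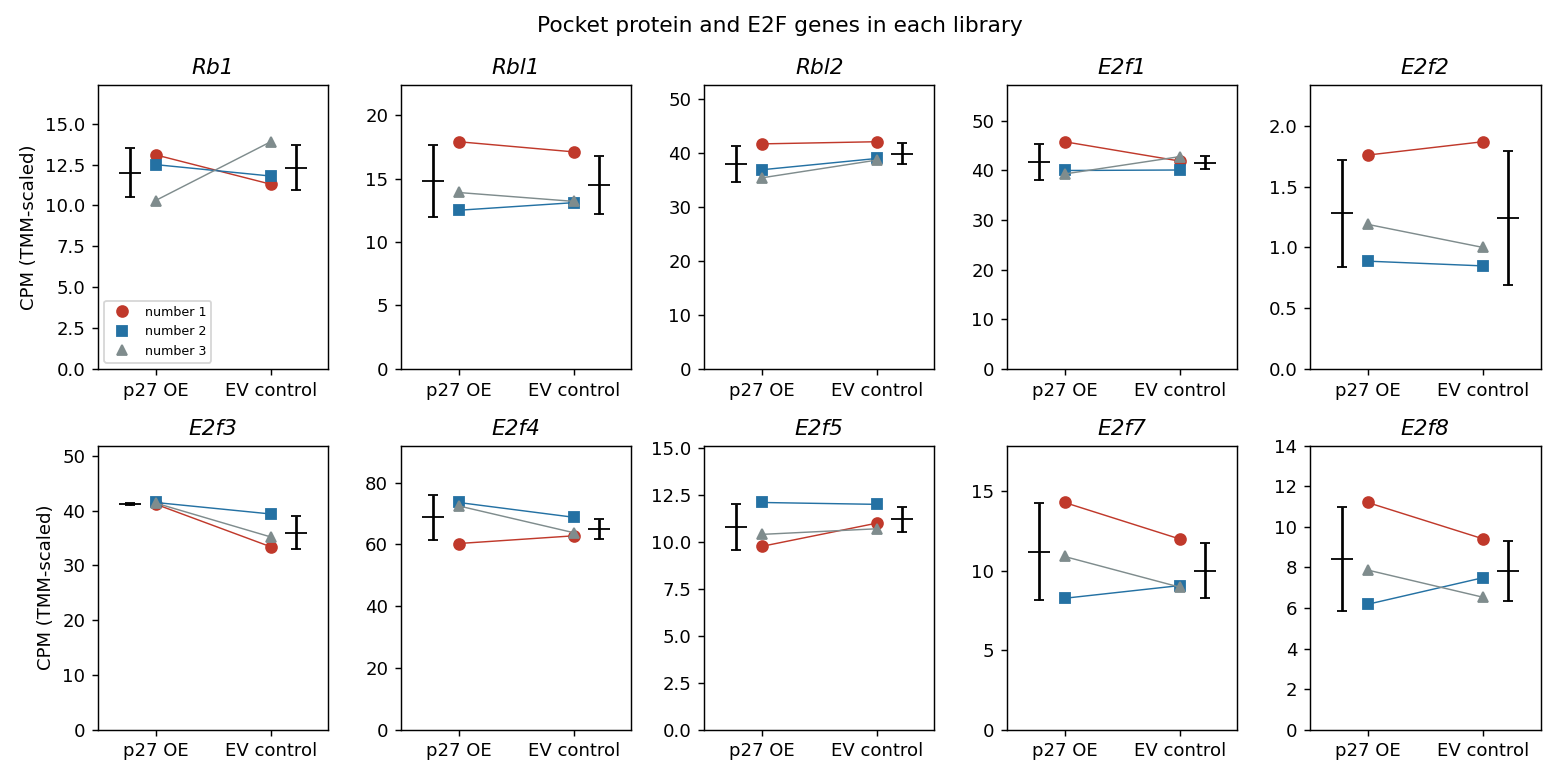
CPM of each gene (y axis, TMM-scaled, from 0) in p27 OE on the left and EV control on the right of each panel. Points are libraries, lines join libraries of one number, and black bars give the mean ± SD of 3 libraries. The groups are apart only for E2f3, at 41.2 to 41.5 CPM in p27 OE and 33.4 to 39.4 CPM in EV control, and the libraries numbered 1 are highest for Rbl1, Rbl2, E2f2, E2f7 and E2f8.

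Some members stood out by the number of a library. The range of the 3 number means was larger than the difference between groups in 8 of 10 members, the exceptions being Rb1 and E2f3, and in 78.4% of all tested genes, so this count is near the background. In log2 CPM the libraries numbered 1 exceeded the other 4 by 0.87 for E2f2, 0.55 for E2f8, 0.50 for E2f7 and 0.41 for Rbl1. Over all tested genes the median size of that difference was 0.22. The 4 were grouped after their values were seen, and E2f1, an E2F target as well, is not among them. Libraries numbered 1 differed from the others by less for Rbl2 (0.16), E2f1 (0.11), Rb1 (0.01), E2f3 (-0.08), E2f5 (-0.12) and E2f4 (-0.18), though for Rbl2 too both libraries numbered 1 were the highest. The median of 44 G1/S targets of E2F moved with the first 4. Relative to the mean of the 6 libraries it was 0.42, -0.24 and -0.15 in p27 OE 1, 2 and 3 and 0.31, -0.13 and -0.21 in EV control 1, 2 and 3. For 32 G2/M targets it was 0.23, -0.24 and -0.08 in p27 OE and 0.16, -0.03 and -0.10 in EV control. The libraries numbered 1 are also those that stood apart in Xist, and what sets them apart was not tested. Leaving out both of them left 0 of 10 members called in the paired edgeR fit.

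**Figure D3:**
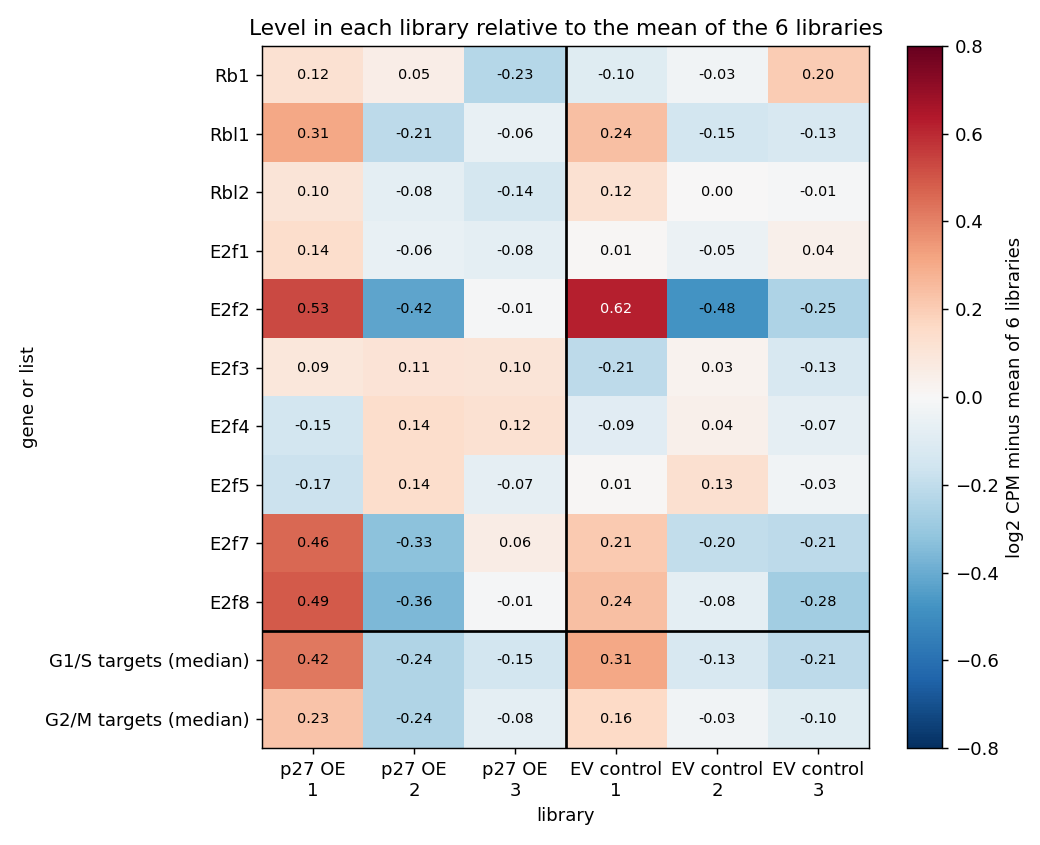
Log2 CPM minus the mean of the 6 libraries (colour and printed value) for the 10 genes and for the median of 2 target lists (rows) in each library (columns, p27 OE left of EV control). E2f2, E2f7, E2f8 and Rbl1 share high values in the libraries numbered 1 with the G1/S targets, whose median is 0.42 in p27 OE 1 and 0.31 in EV control 1.

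Per kilobase of exon, the repressor E2f4 was the most abundant transcript of the family and E2f2 the least. Levels in CPM per kilobase, given as the mean ± SD over 3 libraries, were 28.1 ± 3.0 in p27 OE and 26.6 ± 1.30 in EV control for E2f4. E2f1 followed at 13.2 ± 1.13 in p27 OE and 13.2 ± 0.428 in EV control. E2f3 was next at 7.62 ± 0.0352 in p27 OE and 6.64 ± 0.566 in EV control. E2f5 was at 6.05 ± 0.686 in p27 OE and 6.31 ± 0.366 in EV control, and Rbl2 at 5.03 ± 0.439 in p27 OE and 5.28 ± 0.254 in EV control. The other pocket protein genes were lower, Rbl1 at 2.47 ± 0.469 in p27 OE and 2.41 ± 0.381 in EV control, and Rb1 at 1.99 ± 0.249 in p27 OE and 2.04 ± 0.228 in EV control. The atypical genes came next, E2f8 at 1.55 ± 0.469 in p27 OE and 1.43 ± 0.270 in EV control, and E2f7 at 1.24 ± 0.337 in p27 OE and 1.11 ± 0.194 in EV control. E2f2 was at 0.262 ± 0.0905 in p27 OE and 0.254 ± 0.113 in EV control. Over the 6 libraries the ranges of E2f4, E2f1 and E2f2 overlapped with no neighbour. E2f3 overlapped with E2f5, E2f5 with Rbl2, Rbl1 with Rb1, Rb1 with E2f8 and E2f8 with E2f7. Within every library, however, Rb1 was above E2f8 and E2f8 above E2f7. The order of E2f3 and E2f5, of E2f5 and Rbl2 and of Rbl1 and Rb1 changed between libraries and is not settled. Lengths are GENCODE exon unions, which may differ from the exons the authors counted. The summed level of the activators over that of E2f4 and E2f5 was 0.747, 0.557 and 0.574 in p27 OE 1, 2 and 3 and 0.623, 0.580 and 0.632 in EV control 1, 2 and 3, with the highest ratio and the lowest both in p27 OE.

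**Figure D4:**
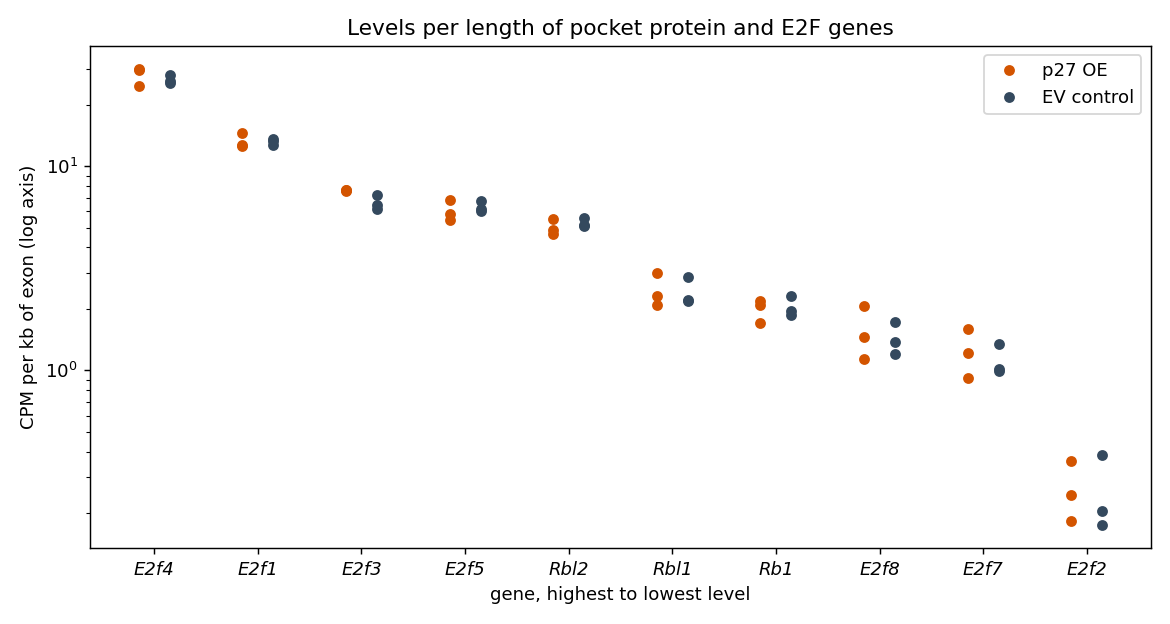
CPM per kilobase of exon (y axis, log scale) for each gene, ordered from highest to lowest (x axis), with the 3 p27 OE libraries left of the 3 EV control libraries. E2f4 lies between 24.6 and 30.0 and E2f2 between 0.174 and 0.383 CPM per kilobase.

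Profiles most like those of E2f1 and Rb1 were sought among 10608 other genes averaging 5 CPM or more, by the root mean square distance between log2 CPM values centred over the 6 libraries. Nearest to E2f1 were Mllt6 (0.0160), Usp40 (0.0196) and Cdk2 (0.0200), the last being the catalytic subunit that cyclin E activates and p27 inhibits. E2f1 itself varied little, by 0.0748 around its own mean, and 1842 genes lay within 0.1 of it, so the nearness is not particular. Cdk2 was at 41.5, 35.5 and 35.9 CPM in p27 OE 1, 2 and 3 and at 37.9, 36.8 and 37.8 CPM in EV control 1, 2 and 3. Nearest to Rb1 were Actr6 (0.0543), Dynlt1a (0.0575) and Zbtb40 (0.0628), of 54 genes within 0.1.

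No gene was called among the partners of the family or in the list of E2f6 and its co-repressors, which for lists of 9 genes is near the share over all tested genes. Of 9 genes for DP proteins, the MuvB complex and its activators, 0 were called in the paired edgeR fit, where 3.80% of tested genes were higher and 3.63% lower. Tfdp1, the main dimer partner of E2F1 to E2F6, was at 121 ± 7.26 CPM in p27 OE and 115 ± 7.18 CPM in EV control (log2 difference 0.07 ± 0.05, adjusted p 0.445). Mybl2, the B-MYB factor that joins MuvB in S phase and is itself an E2F target, was at 16.1, 10.9 and 10.2 CPM in p27 OE 1, 2 and 3 and at 13.4, 9.55 and 9.59 CPM in EV control (0.18 ± 0.10, adjusted p 0.277). Its value was higher in p27 OE within each number, although the groups overlapped. Rbbp4, a histone chaperone within MuvB, differed by -0.06 ± 0.05 (adjusted p 0.541). E2f6, the family member that represses without pocket proteins, was at 42.7 ± 3.10 CPM in p27 OE and 42.4 ± 2.60 CPM in EV control, and of the 9 genes for it and its co-repressors 0 were called. The smallest p in that list were those of Mga (0.14 ± 0.07, adjusted p 0.275), Cbx3 (-0.08 ± 0.05, 0.356) and L3mbtl2 (-0.06 ± 0.09, 0.748).

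Among genes for proteins that act on pocket proteins or through them, the calls were in the kinase list. Over all tested genes 7.43% were called in the paired edgeR fit, so 0 calls in a list of 12 or of 5 genes are near the background. Of 12 chromatin partners 0 were called in the paired edgeR fit, with the remodelling ATPase genes Smarca4 (0.19 ± 0.06, adjusted p 0.0606) and Smarca2 (-0.18 ± 0.06, 0.0904) and the demethylase gene Kdm5a (0.15 ± 0.06, 0.161) nearest to it. Without the libraries numbered 1, 1 of the 12 was called higher and 1 lower, and without those numbered 2, 1 was called higher. Of 5 genes for the turnover of E2F and pocket proteins 0 were called, the smallest p being those of the RB1- and p53-binding ligase gene Mdm2 (0.12 ± 0.05, adjusted p 0.206), the APC/C activator gene Fzr1 (-0.05 ± 0.07, 0.665) and the gankyrin gene Psmd10 (-0.04 ± 0.08, 0.801). Of 16 genes for the kinases that phosphorylate pocket proteins and their regulators, 4 were called higher and 1 lower, where 3.80% of all tested genes were called higher and 3.63% lower. They were the cyclin genes Ccnd1, Ccnd2, Ccne1 and Ccne2, and Cdkn1c, which encodes the p27 relative p57. Ccnd1 was at 325, 239 and 226 CPM in p27 OE 1, 2 and 3, against 263, 175 and 165 CPM in EV control (0.40 ± 0.06, adjusted p 0.00127). Ccnd2 was at 852, 886 and 854 CPM in p27 OE 1, 2 and 3, against 608, 657 and 648 CPM in EV control, with no overlap (0.44 ± 0.06, adjusted p 6.46e-04). Cdkn1c was at 131, 66.7 and 59.9 CPM in p27 OE 1, 2 and 3, against 223, 105 and 109 CPM in EV control, lower in p27 OE within each number (-0.76 ± 0.06, adjusted p 1.54e-05). The list's median log2 difference was 0.00, equal to that of all tested genes. Without both libraries numbered 1, 2 or 3 in turn, 5, 3 and 2 of its genes were called higher and 2, 1 and 1 lower.

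Of 44 G1/S targets of E2F 3 were called higher and 0 lower in the paired edgeR fit, a share near the 7.43% called over all tested genes. They were Ccne1, Ccne2 and the thymidine kinase gene Tk1. The list's median log2 difference was 0.06, against 0.00 over all tested genes, and 28 of the 44 were above 0. Within numbers 1, 2 and 3 the medians were 0.16, -0.12 and 0.10, so number 2 ran against the others. Number 2 also held the library with the most Cdkn1b, and whether its median relates to the Cdkn1b level was not tested. Ccne1, the cyclin E1 gene, was at 44.6, 40.7 and 46.3 CPM in p27 OE 1, 2 and 3 and at 38.8, 35.2 and 37.6 CPM in EV control, with groups that did not overlap (0.24 ± 0.06, adjusted p 0.0390). The call of Ccne1 was lost without the libraries numbered 2 (0.0584) or 3 (0.304), under upper-quartile scaling (0.0521) and in paired DESeq2 (0.0686). Ccne2, the cyclin E2 gene, was at 5.89, 3.37 and 2.65 CPM in p27 OE 1, 2 and 3 and at 3.78, 1.72 and 1.44 CPM in EV control (0.81 ± 0.18, adjusted p 0.0152). Tk1 was at 41.4, 20.9 and 20.9 CPM in p27 OE and 35.7, 16.0 and 15 CPM in EV control (0.35 ± 0.08, adjusted p 0.0170). Ccne2 and Tk1 were higher in p27 OE within each number and in the libraries numbered 1 within each group, and both calls were lost without the libraries numbered 3 (adjusted p 0.0722 for Ccne2 and 0.159 for Tk1). Without pairing, the sign of the Tk1 difference depended on which library was left out. Without both libraries numbered 1, 2 or 3 in turn, 3, 3 and 0 of the 44 were called higher and 1, 0 and 0 lower. The 3 without number 2 were not the same genes, since Pole, a DNA polymerase gene, was called there (adjusted p 0.00205) and Ccne1 was not.

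Of 32 G2/M targets of DREAM, MYBL2 and FOXM1, 0 were called higher and 2 lower in the paired edgeR fit, a share near the 7.43% called over all tested genes. The 2 were the phosphatase gene Cdc25b, which promotes entry into mitosis, and the centromere histone gene Cenpa. Cdc25b was at 32.5, 24.4 and 25.9 CPM in p27 OE 1, 2 and 3, against 40.6, 36.0 and 34.2 CPM in EV control, with groups that did not overlap (-0.43 ± 0.07, adjusted p 0.00422). Cenpa was at 32.9, 28.5 and 30.2 CPM in p27 OE and at 35.6, 36.5 and 37.5 CPM in EV control, likewise apart (-0.26 ± 0.07, adjusted p 0.0446, and 0.177 without the libraries numbered 2). Its call was also lost without the libraries numbered 3 (0.277), in paired DESeq2 (0.10) and when genes needed 1 CPM in 3 libraries (0.0502). The mitotic kinase gene Nek2 differed by -0.28 ± 0.09 (adjusted p 0.0698). The list's median was -0.02 against 0.00 over all tested genes, and 0.08, -0.17 and 0.00 within numbers 1, 2 and 3. Without both libraries numbered 1, 2 or 3 in turn, 0, 2 and 0 of the 32 were called higher and 3, 1 and 1 lower.

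Apoptosis genes that E2F1 is known to induce moved in both directions. Of 7 tested genes, from a list of 8 in which Trp73 had too few counts, 2 were called higher and 1 lower in the paired edgeR fit. Over all tested genes 3.80% were called higher and 3.63% lower there. Bid, which links death receptors to the mitochondrion, was at 17.4, 27 and 17.2 CPM in p27 OE 1, 2 and 3, against 13.6, 16.3 and 14.2 CPM in EV control (0.45 ± 0.10, adjusted p 0.0149, and 0.0796 without the libraries numbered 2). Pmaip1, the gene of NOXA, was at 27.6, 88.4 and 90.7 CPM in p27 OE and at 23.8, 68.1 and 68.2 CPM in EV control (0.34 ± 0.06, adjusted p 0.00658, and 0.0871 without the libraries numbered 3). Bcl2l11, the gene of BIM, was lower, at 45.5, 24.4 and 27 CPM in p27 OE and 58.9, 35.1 and 34.4 CPM in EV control (-0.41 ± 0.07, adjusted p 0.00342). In each of the 3 the value moved one way within every number, and the groups overlapped in Pmaip1 and Bcl2l11. The list's median was -0.06. Without pairing, edgeR called 0 of the 130 distinct genes over these 8 lists, where 0% of tested genes were called, and DESeq2 called 1 higher.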

How the data were processed

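The authors deposited a table of raw counts per gene for 6 libraries. Named in the submitters' processing notes are featureCounts 1.4.6, Subread, Bowtie2 2.2.6, TopHat2 2.0.14 and build mm10; which annotation, strand setting and multi-mapping rule applied is not stated. Libraries were made with an unstranded TruSeq RNA kit, per the labels' protocols, and grouped by title. Genes were kept with filterByExpr (minimum count 10, minimum total 15) and scaled by TMM, and CPM uses the scaled library sizes. Tests were two-sided in edgeR 4.0.16 (quasi-likelihood, robust, Benjamini-Hochberg over 14090 genes, threshold 0.05; R 4.3.3), without the library number and, as an alternative, with it as a block. SE and 95% intervals derive from the F statistic. Numbers were taken to pair the libraries because deviations from group means correlated at 0.77, 0.42 and 0.54 in numbers 1, 2 and 3, although p27 OE 3 with EV control 2 (0.39) and p27 OE 2 with EV control 3 (0.41) came close. Levels of Xist also went by number in both groups. Alternatives included DESeq2 1.42.0 and limma-voom 3.58.1. No exact permutation test was run, as 0.1 is its smallest p at this size. The edgeR fit with TMM and filterByExpr, with and without the block, was also run on simulated counts. The other tools, scalings and filters were not. Positions and lengths are from GENCODE on GRCm38, the assembly mm10 names. Members and lists were chosen with earlier results of these data known. Named are the members, Cdkn1b, in each list the 3 genes with the smallest paired p and every called one, and 3 profile neighbours of E2f1 and of Rb1. E2f6 is named as a family member, chosen after its values were seen.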

Additional observations from a re-analysis of the deposited data

How the results depend on the processing

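With all 6 libraries, no tool, scaling or filter called a member with or without the replicate block. The one call came with the block and without replicate 2, which called 1 member, E2f3, higher on 2 pairs (log2 0.27, adjusted p 0.0451). E2f3 was positive under each setting, between 0.15 and 0.27, Rbl2 negative, between -0.14 and -0.02, and E2f4 positive, between 0.02 and 0.17.

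Counts over all genes depended on the block: 0 higher and 0 lower without it, and 535 and 512 with it. With the block they were 567 and 475 under RLE scaling, 483 and 736 under upper-quartile scaling, 689 and 727 with no filter, 543 and 475 with at least 1 CPM in 3 libraries, 479 and 351 in DESeq2 and 536 and 506 in limma-voom. With the block and without replicate 1, 2 or 3 they were 893 and 848, 503 and 425, and 224 and 106. Without the block, DESeq2 gave 53 and 36, no filter gave 1 higher, and leaving out 1 library gave 0 to 1 higher and 0 lower. Among the 130 list genes the block gave 7 higher and 4 lower, RLE 7 and 4, upper quartile 6 and 4, no filter 8 and 5, the CPM filter 7 and 3, DESeq2 6 and 3, limma-voom 7 and 4, and without replicate 1, 2 or 3 it gave 9 and 8, 9 and 3, and 3 and 3. DESeq2 without the block called 1 of them higher.

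Some signs turned, both of differences near 0 and of larger ones such as Tk1 (0.32 in the edgeR fit without pairing). E2f1 was -0.02 under upper-quartile scaling with and without the block, -0.0003 with no filter, -0.0022 with no filter and the block and -0.06 with the block and without replicate 1. With the block and without replicate 3, Rb1 was 0.15, E2f2 -0.03, Fzr1 0.01 and L3mbtl2 0.0036, and without replicate 1 Psmd10 was 0.0021. Leaving out 1 library without the block gave ranges of -0.11 to 0.06 for Rb1, -0.13 to 0.17 for Rbl1, -0.07 to 0.04 for E2f1, -0.26 to 0.47 for E2f2, -0.15 to 0.0050 for E2f5, -0.07 to 0.33 for E2f7 and -0.15 to 0.29 for E2f8. For list genes the ranges were -0.22 to 0.05 for Cbx3, -0.13 to 0.04 for Fzr1, -0.05 to 0.37 for Mybl2, -0.10 to 0.01 for Rbbp4 and -0.09 to 0.84 for Tk1. The cause of these changes was not tested. E2f2 has no adjusted p in DESeq2 with the block.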
